A study of Rattus norvegicus with 23 samples.

Results

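miR-199a and miR-214 are the microRNAs (miRs) that mammals cut from Dnm3os, a long RNA transcribed from inside the dynamin 3 gene, Dnm3, on the opposite strand. They were followed here in cultured muscle-derived stem cells (MDSC) of Zucker rats. Rows named miR-199a or miR-214, with any arm suffix, were taken from the deposited count tables. There are 4 such rows of 792, namely rno-miR-199a-5p, rno-miR-199a-3p, rno-miR-214-3p and rno-miR-214-5p, and the first 3 had reads in each of the 23 libraries.

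Dnm3os and its miRs are background knowledge from mouse and human. The transcript is expressed in mesenchymal cells and fibroblasts, its loss in mice disturbs the growing skeleton, and the transcription factor Twist1 drives it. miR-199a-5p represses caveolin 1 in lung fibroblasts and counts as a fibrosis miR, miR-199a-3p represses mTOR in human cells, and miR-214-3p represses Ezh2 during muscle differentiation in mouse. A miR hairpin yields a 5p arm and a 3p arm, of which usually one accumulates.

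Small RNA was sequenced from 5 kinds of cells, with mostly 1 library per condition. ZF4-SC and ZL4-SC came from the pelvic floor muscle (levator ani) of female rats of the obese (ZF) and non-obese (ZL) strain, 12 weeks old, and were used at passages 10 to 15. They had been sorted as CD45-, CD11b-, CD31-, Sca1-, CD34+ and integrin alpha 7+. ED-MDSC and LD-MDSC were male cells of early and late diabetes, from obese-strain rats of 12 and 32 weeks, and ND-MDSC were male cells labelled non-diabetic. Their muscle is the quadriceps in the labels, while the paper names the gastrocnemius for its male cells. Cells received no addition, 5% serum of non-obese (LZ) or obese (OZ) rats, palmitate or cholesterol, or a carrier alone, each for 4 days. Palmitate came with its carrier albumin, and cholesterol was complexed to its carrier cyclodextrin. The paper describes sera of female rats for ZF4-SC and ZL4-SC, and sera of male rats of another age for ED-MDSC. The names LZ and OZ do not separate these, so donor sex and age cannot be told apart from kind of cell. For ND-MDSC the serum donor is not described there. One count table holds 7 libraries of ED-MDSC and LD-MDSC (the male set), another holds 8 libraries of ND-MDSC, ZF4-SC and ZL4-SC without and with serum (the serum set), and the third 8 libraries of ZF4-SC with lipids and carriers (the lipid set). Whether libraries came from separate animals is not given in the sources used here. In the tests of serum over kinds of cells, p-values measure how far the response differed between those kinds, which may be partly technical. In the lipid tests they measure the spread between doses of palmitate, doses of cholesterol and the cyclodextrin libraries. That spread holds any effect of dose and may be partly technical. In the test of ZF4-SC against ZL4-SC they measure the spread within the duplicated conditions, untreated and cyclodextrin ZF4-SC, which may be technical.

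Totals of miR reads were 1701574 to 3840523 in the male set, 6492161 to 13271580 in the serum set and 104902 to 4783062 in the lipid set, where palmitate at 1 mM was the shallowest. miR-143-3p, miR-99b-5p and miR-10a-5p together held 34.1% to 69.6% of the reads of a library. Every level below is in RPM, reads per 1000000 miR reads of the library, so it is relative to those few miRs, and a lower share cannot be told apart from a rise of other miRs. In such bulk libraries fewer cells of a type and less RNA per cell cannot be told apart either. Listed mesenchymal miRs (miR-143, miR-145, miR-152, miR-22, miR-100, miR-125b and miR-21, any arm) summed to between 214806 and 642407 RPM, the epithelial list to 21.5 at most and the striated muscle list to 23.6 at most. miR-133a-3p and miR-133b-3p, defining miRs of muscle fibres, were listed at 0 in all 23 libraries. miR-125b-5p of the mesenchymal list was listed at 0 as well, while miR-125b-1-3p had 25551 reads and miR-125b-2-3p 35493, so a 0 in these tables is not read as absence. The 10 blood-cell entries summed to 6.68 to 99.8 in the ND-MDSC, ZL4-SC and serum-set ZF4-SC libraries, but to 4820 in ED-MDSC with OZ serum.

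The sequences of the members are printed from RefSeq (build GRCr8), since the count tables give names without sequences or positions. Bases 2 to 8, the seed that pairs with target mRNAs, are in capitals.
miR-199a-5p: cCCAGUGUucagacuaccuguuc
miR-199a-3p: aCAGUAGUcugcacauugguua
miR-214-3p: aCAGCAGGcacagacaggcag
miR-214-5p: aGAGUUGUcaugugucu
The arms of miR-199a lie at chr13:77116255-77116277 and chr13:77116294-77116315, both on the plus strand within Mir199a2. They are 16 bases apart on their hairpin. miR-214-3p lies at chr13:77121713-77121733 on the same strand, 5397 bases downstream of miR-199a-3p. RefSeq places both miR genes within the span of Dnm3, which is on the minus strand. Each member has a seed of its own, and no other entry among the 693 mature rat miRs of the table shares one, so the 4 members have 4 different seeds. The seeds of miR-199a-3p and miR-214-3p both begin with CAG and part after it.

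In mouse and human another copy of miR-199a sits in the dynamin 2 gene, and a relative in dynamin 1, miR-199b, has the same 3p arm. The tables have no miR-199b row, and how reads matching several loci were treated is not given in the sources used here, so reads of miR-199a cannot be assigned to Dnm3os alone. The same limit does not touch miR-214, which has 1 gene in the RefSeq table. Its hairpin is shown because another miR is encoded on its opposite strand. Capitals mark miR-214-5p, at positions 12 to 28, and miR-214-3p, at positions 69 to 89.
Mir214 hairpin: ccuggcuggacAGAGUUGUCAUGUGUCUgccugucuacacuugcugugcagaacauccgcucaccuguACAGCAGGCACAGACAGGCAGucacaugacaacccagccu
miR-3120: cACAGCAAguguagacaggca
miR-3120 (seed in capitals) comes from the minus strand, at chr13:77121672-77121692, and faces positions 28 to 48 of the Mir214 hairpin. The hairpins of Mir214 and Mir3120 share 106 bases.

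Levels in cells without addition come first. The 5p arm of miR-199a was the most abundant member in each of the 6 such libraries. Its level was 21628 RPM in ED-MDSC, 20067 in ND-MDSC, 12934 in ZF4-SC of the serum set, 12180 in LD-MDSC, 9595 in ZL4-SC and 4077 in ZF4-SC of the lipid set. The early-diabetes and non-diabetic male cells thus stood highest. Male and female cells also differ in muscle and, by the paper, in isolation, and these cannot be told apart from sex. The 3p arm had another leader, with 11146 in ND-MDSC, 7262 in ED-MDSC, 4042 in ZF4-SC of the serum set, 3519 in LD-MDSC, 3470 in ZL4-SC and 2929 in ZF4-SC of the lipid set. miR-214-3p was at 1642 in ND-MDSC, 1404.5 in ED-MDSC, 665 in ZF4-SC of the serum set, 612 in ZF4-SC of the lipid set, 607 in ZL4-SC and 604 in LD-MDSC. For all 3 miRs ED-MDSC and ND-MDSC were the upper pair, and the 4 lower libraries of miR-214-3p lay close together, between 604 and 665. The 95% Wilson interval of ED-MDSC for miR-199a-5p was 21482 to 21774, and it did not reach that of ND-MDSC, 19967 to 20166. Such intervals cover counting error only.

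The only cells with 2 untreated libraries show how far libraries of one condition can lie apart. miR-199a-5p in ZF4-SC of the lipid set was at 0.315 of its level in the serum set (exact 95% interval 0.310 to 0.320). miR-199a-3p was at 0.725 (0.710 to 0.740) and miR-214-3p at 0.920 (0.876 to 0.965), but both were higher rather than lower with TMM scaling, at 1.08 and 1.37. The median ratio was 0.777 over the 148 miRs that averaged 100 reads or more in these libraries. The gap between these libraries for miR-199a-5p spans the third and the last place in the order given above, so no order among LD-MDSC, ZL4-SC and ZF4-SC can be read from single libraries. All 8 lipid-set libraries had miR-199a-5p at 2303 to 4555, below each of the other 15, which lay between 5257 and 25763. The set and the agents used in it cannot be told apart, except for the untreated ZF4-SC library, which was low as well.

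**Figure D1:**
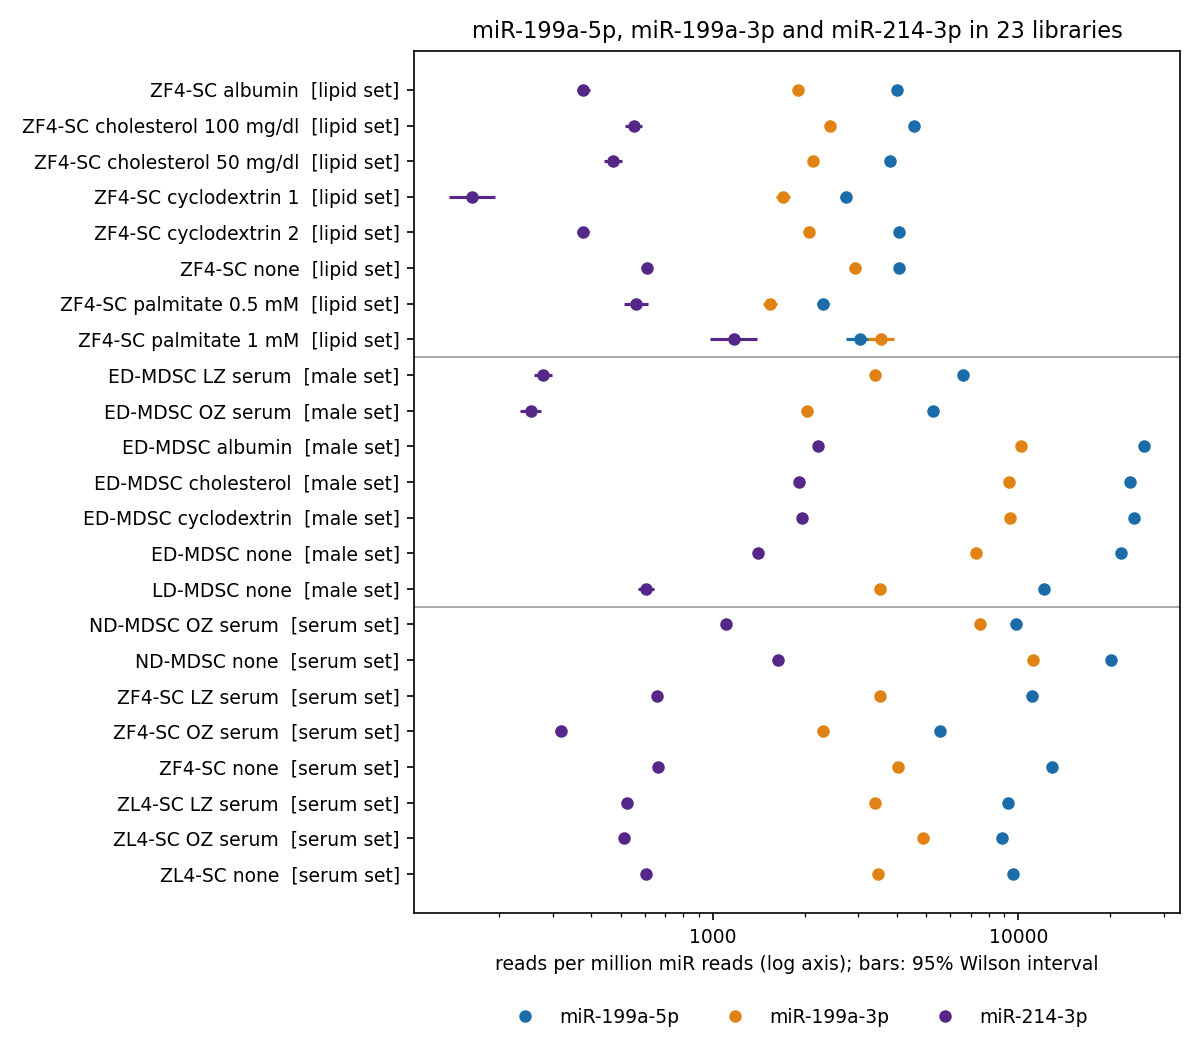
RPM (log axis) of miR-199a-5p, miR-199a-3p and miR-214-3p in each of the 23 libraries, with 95% Wilson intervals, ordered by count table. miR-214-3p lies leftmost in every library, from 163 in a ZF4-SC library with cyclodextrin to 2210 in ED-MDSC with albumin.

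Late against early diabetes was compared within the male set. LD-MDSC had miR-199a-5p at 0.563 (0.555 to 0.572), miR-199a-3p at 0.485 (0.472 to 0.498) and miR-214-3p at 0.430 (0.403 to 0.459) of ED-MDSC. A ratio of 0.5 or less held for 2 of the 3 members, where 27.1% of the 133 miRs averaging 100 reads or more had one. The members were therefore not at the edge of this comparison, and 20.3% of the miRs had a ratio below that of miR-214-3p. The 3 most abundant miRs took 56.6% of the LD-MDSC reads and 34.1% of the ED-MDSC reads. Leaving them out of the totals moved the ratios to 0.856, 0.736 and 0.654. TMM scaling left the ratios at 0.560, 0.482 and 0.428. The blood-cell list was at 202 RPM in ED-MDSC and 771 in LD-MDSC, and its part was not tested. With 1 library of each there is no test. In untreated ZF4-SC against ZL4-SC of the serum set, miR-199a-5p was at 1.35 (1.33 to 1.36), miR-199a-3p at 1.16 (1.14 to 1.18) and miR-214-3p at 1.10 (1.05 to 1.14), and with TMM scaling all 3 turned to the other side, at 0.648, 0.560 and 0.527.

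Serum was given to 4 kinds of cells. miR-199a-5p had 21628 RPM in ED-MDSC without serum, 6585 with LZ serum and 5257 with OZ serum. In ZF4-SC the same arm had 12934, 11133 and 5529, in that order, and in ZL4-SC 9595, 9248 and 8842. ND-MDSC, which received OZ serum only, had 20067 without and 9853 with it. Within a set the OZ serum library was the lowest of each kind of cell for this arm, and the untreated libraries compared here, 9595 to 21628, overlapped those with OZ serum, 5257 to 9853. The untreated ZF4-SC library of the lipid set, at 4077, was below ZF4-SC with OZ serum.

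Within a set miR-214-3p was likewise lowest with OZ serum in each kind of cell. In ED-MDSC and ZL4-SC the OZ and LZ serum values did not differ beyond counting error. miR-214-3p had 1404.5 RPM in ED-MDSC without serum, 279 with LZ serum and 254 with OZ serum. ZF4-SC had 665, 658 and 318. ZL4-SC had 607, 523 and 513, a narrower spread, and ND-MDSC had 1642 without and 1106 with OZ serum. Untreated libraries and OZ serum libraries overlapped through ND-MDSC, whose OZ serum value was above the untreated values of ZF4-SC and ZL4-SC.

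miR-199a-3p did not move alike in the 4 kinds of cells. It had 7262 RPM in ED-MDSC without serum, 3401 with LZ serum and 2044 with OZ serum, and 11146 and 7472 in ND-MDSC without and with OZ serum. ZF4-SC had 4042, 3528 and 2295. In ZL4-SC the value was 3470 without serum, 3389 with LZ serum and 4880 with OZ serum, so that OZ serum stood at 1.41 of the untreated level (1.38 to 1.43), or at 0.872 with TMM scaling.

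**Figure D2:**
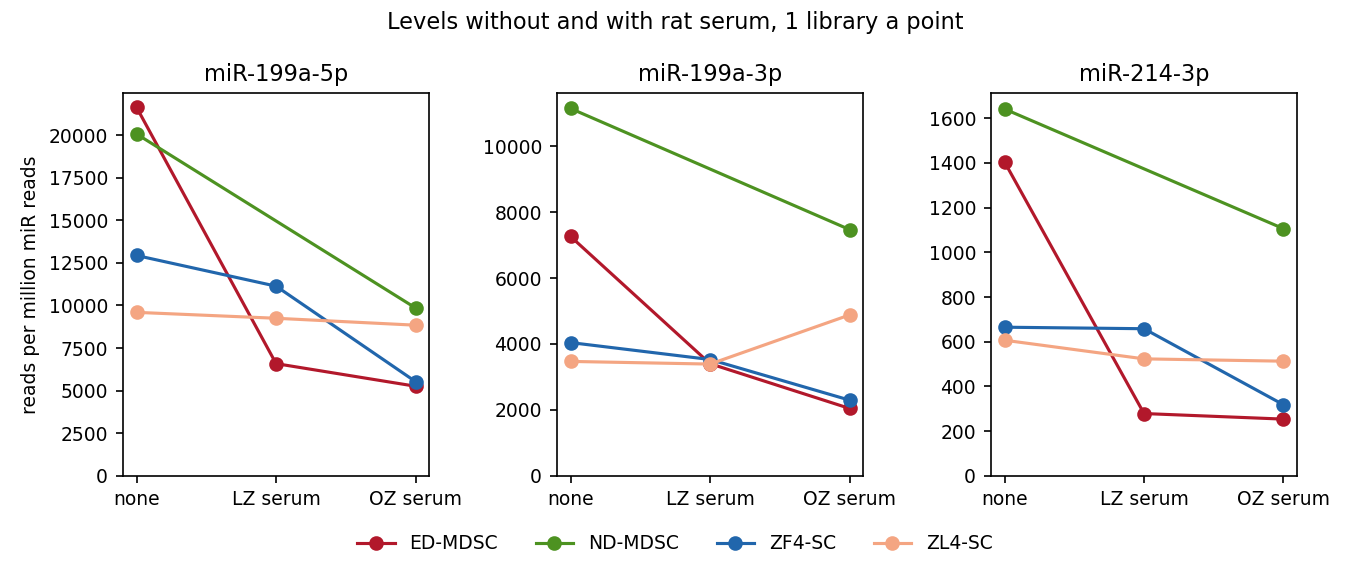
RPM of the 3 abundant members without serum, with LZ serum and with OZ serum, 1 library a point, 1 line for each kind of cell (ND-MDSC had no LZ serum library). The ED-MDSC line drops already with LZ serum, from 21628 to 6585 for miR-199a-5p, while ZF4-SC stays at 11133 with LZ serum and reaches 5529 with OZ serum.

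Set against the other miRs, the ED-MDSC values were the farthest out. With OZ serum miR-199a-5p was at 0.243 (0.239 to 0.248), miR-199a-3p at 0.281 (0.273 to 0.290) and miR-214-3p at 0.181 (0.166 to 0.196) of the untreated level. All 3 had a ratio of 0.5 or less, where 14.3% of 154 miRs did, and 4.55% of the miRs had a ratio below that of miR-214-3p. With LZ serum the ratios were 0.304 (0.300 to 0.309), 0.468 (0.458 to 0.479) and 0.198 (0.185 to 0.213), again 3 of 3 against 14.1% of 156 miRs. With TMM scaling they were lower still, 0.167, 0.193 and 0.124 with OZ serum. The blood-cell list moved with these libraries. Its summed level was 202 RPM in untreated ED-MDSC, 1397 with LZ serum and 4820 with OZ serum, with 6, 10 and 9 of its 10 entries above 0, and miR-451-5p, the red-cell miR, reached 3882. Its part in the result was not tested.

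In ND-MDSC with OZ serum 1 of the 3 members, miR-199a-5p at 0.491 (0.487 to 0.495), had a ratio of 0.5 or less, against 10.7% of 169 miRs. miR-199a-3p was at 0.670 (0.664 to 0.677) and miR-214-3p at 0.674 (0.658 to 0.690). TMM scaling put miR-199a-5p, miR-199a-3p and miR-214-3p of ND-MDSC at 0.569, 0.776 and 0.780, all above 0.5. In ZF4-SC with OZ serum the ratios were 0.427 (0.423 to 0.432), 0.568 (0.557 to 0.579) and 0.478 (0.455 to 0.502), and 2 of 3 were at 0.5 or less, against 19.0% of 158 miRs. The median ratio of those 158 miRs was itself 0.721, and with TMM scaling the 3 members were at 0.645, 0.857 and 0.721. Against the untreated ZF4-SC library of the lipid set, miR-199a-5p would be at 1.36. ZL4-SC had 0 of 3 at 0.5 or less, against 3.33% of 150 miRs, with miR-199a-5p at 0.922 (0.912 to 0.931) and miR-214-3p at 0.845 (0.810 to 0.883). With TMM scaling these were 0.571 and 0.524, below the ZF4-SC values on that scale, so which of the 2 kinds of cells was lower depends on the scaling. The blood-cell list stayed between 7.77 and 14.8 RPM in these untreated and OZ serum libraries of ND-MDSC, ZF4-SC and ZL4-SC.

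Tests took the kinds of cells as replicates and as blocks (edgeR, quasi-likelihood, on miRs averaging 10 reads or more, p adjusted over all of them by Benjamini and Hochberg). OZ serum against none gave a log2 change of -1.22 ± 0.44 (SE, 8 libraries, edgeR adjusted p = 0.685) for miR-199a-5p, which was lower in 4 of 4 kinds of cells. miR-199a-3p had -0.78 ± 0.46 (edgeR adjusted p = 0.760), lower in 3 of 4 in RPM. With the TMM scaling of the fit it was lower in ZL4-SC too, at 0.872. miR-214-3p had -1.17 ± 0.49 (edgeR adjusted p = 0.685), lower in 4 of 4. None of the 3 passed, and neither did any other miR (0.0%, 0 of 300), although 18 had an unadjusted p under 0.05 in edgeR, miR-199a-5p and miR-214-3p among them, and DESeq2 called 4 miRs, none a member. Without ED-MDSC the 3 log2 changes were -0.53, -0.04 and -0.36. LZ serum against none gave -0.94 ± 0.52, -0.74 ± 0.38 and -1.10 ± 0.65, each with an edgeR adjusted p of 0.857 (6 libraries), and 0 of 295 miRs passed (0.0%), 7 having an unadjusted p under 0.05 and DESeq2 calling 1. Without ED-MDSC these were -0.32, -0.30 and -0.30.

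OZ against LZ serum, the contrast of obese with non-obese serum, gave -0.34 ± 0.31 for miR-199a-5p (6 libraries, edgeR adjusted p = 0.967), -0.14 ± 0.34 for miR-199a-3p (0.992) and -0.28 ± 0.30 for miR-214-3p (0.967). No member passed, where 0.341% of miRs did, 1 of 293. By cell the ratio of OZ to LZ serum for miR-199a-5p was 0.798 (0.781 to 0.816) in ED-MDSC, 0.497 (0.491 to 0.503) in ZF4-SC and 0.956 (0.946 to 0.967) in ZL4-SC. For miR-214-3p it was 0.911 (0.822 to 1.01), 0.483 (0.460 to 0.507) and 0.980 (0.937 to 1.03). In RPM the ZF4-SC pair was thus the lowest of the 3, with a median ratio of 0.687 over 161 miRs. With TMM scaling miR-199a-5p was at 0.784 in ZF4-SC and 0.654 in ZL4-SC, and miR-214-3p at 0.763 and 0.670, so that ZL4-SC was the lowest. Whether OZ serum acted differently in ZF4-SC and ZL4-SC was tested in all 14 female libraries, where each serum condition is 1 library and the untreated ZF4-SC libraries of both count tables enter as 1 group although miR-199a-5p was at 12934 RPM in one and 4077 in the other. The difference between the 2 log2 effects (ZF4-SC minus ZL4-SC) was 0.32 ± 1.08 for miR-199a-5p, -0.34 ± 0.85 for miR-199a-3p and -0.03 ± 1.10 for miR-214-3p (edgeR adjusted p = 0.9997 for each), with 0 of 261 miRs called (0.0%), 1 of them with an unadjusted p under 0.05 and 0 called by DESeq2. With the count table as a term the differences were -0.19 ± 0.84, -0.39 ± 0.79 and 0.10 ± 1.13 (edgeR adjusted p = 0.9998 for each), and with library totals in the first fit miR-199a-5p was at -0.50. The standard errors near 1 leave a 2-fold difference either way undecided.

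Ratios within a library do not depend on the library total. The 5p arm of miR-199a exceeded the 3p arm in 22 of the 23 libraries, with a median ratio of 2.11 and a range from 0.855 (exact 95% interval 0.734 to 0.996), in ZF4-SC with palmitate at 1 mM, to 3.46 (3.37 to 3.56), in LD-MDSC. In untreated cells the ratio was 3.46 in LD-MDSC, 3.20 in ZF4-SC of the serum set, 2.98 in ED-MDSC, 2.76 in ZL4-SC, 1.80 in ND-MDSC and 1.39 in ZF4-SC of the lipid set. ND-MDSC, highest in the 3p arm, was thus among the lowest here.

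Within each set OZ serum went with a lower arm ratio in each kind of cell. The ratio was 2.98 without and 2.57 with OZ serum in ED-MDSC, 1.80 and 1.32 in ND-MDSC, 3.20 and 2.41 in ZF4-SC, and 2.76 and 1.81 in ZL4-SC. The mean log2 change was -0.42 ± 0.16 (SD, n = 4 kinds of cells). In the exact two-sided sign-flip test 2 of 16 sign patterns were as extreme, the fewest that 4 pairs allow, so this design cannot reach the 0.05 threshold. Against the untreated ZF4-SC library of the lipid set, at 1.39, the OZ serum ratio of ZF4-SC was higher, and the mean log2 change was -0.12 (exact two-sided p = 0.75). With LZ serum the ratio was 1.94 in ED-MDSC, 3.16 in ZF4-SC and 2.73 in ZL4-SC, a mean log2 change of -0.22 ± 0.35 (SD, n = 3, exact two-sided p = 0.25, again the smallest possible). In ZF4-SC and ZL4-SC the LZ serum ratio was within 0.05 of the untreated one. For miR-214-3p against miR-199a-5p the mean log2 change with OZ serum was 0.02 ± 0.38 (SD, n = 4, exact two-sided p = 0.875), with 2 of 4 kinds of cells lower.

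miR-214-3p amounted to 0.0423 of the miR-199a-5p reads in ED-MDSC with LZ serum and to 0.386 in ZF4-SC with palmitate at 1 mM, with a median of 0.0818 over the 23 libraries. Within the serum set it ranged from 0.0514 to 0.112 and within the male set from 0.0423 to 0.0858. In the lipid set it was 0.0597 to 0.386, and 0.150 (0.144 to 0.156) in the untreated library, against 0.0514 (0.0499 to 0.0530) in untreated ZF4-SC of the serum set. In this ratio untreated ZF4-SC thus lay farther apart between these count tables than any libraries of the serum set did from each other.

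**Figure D3:**
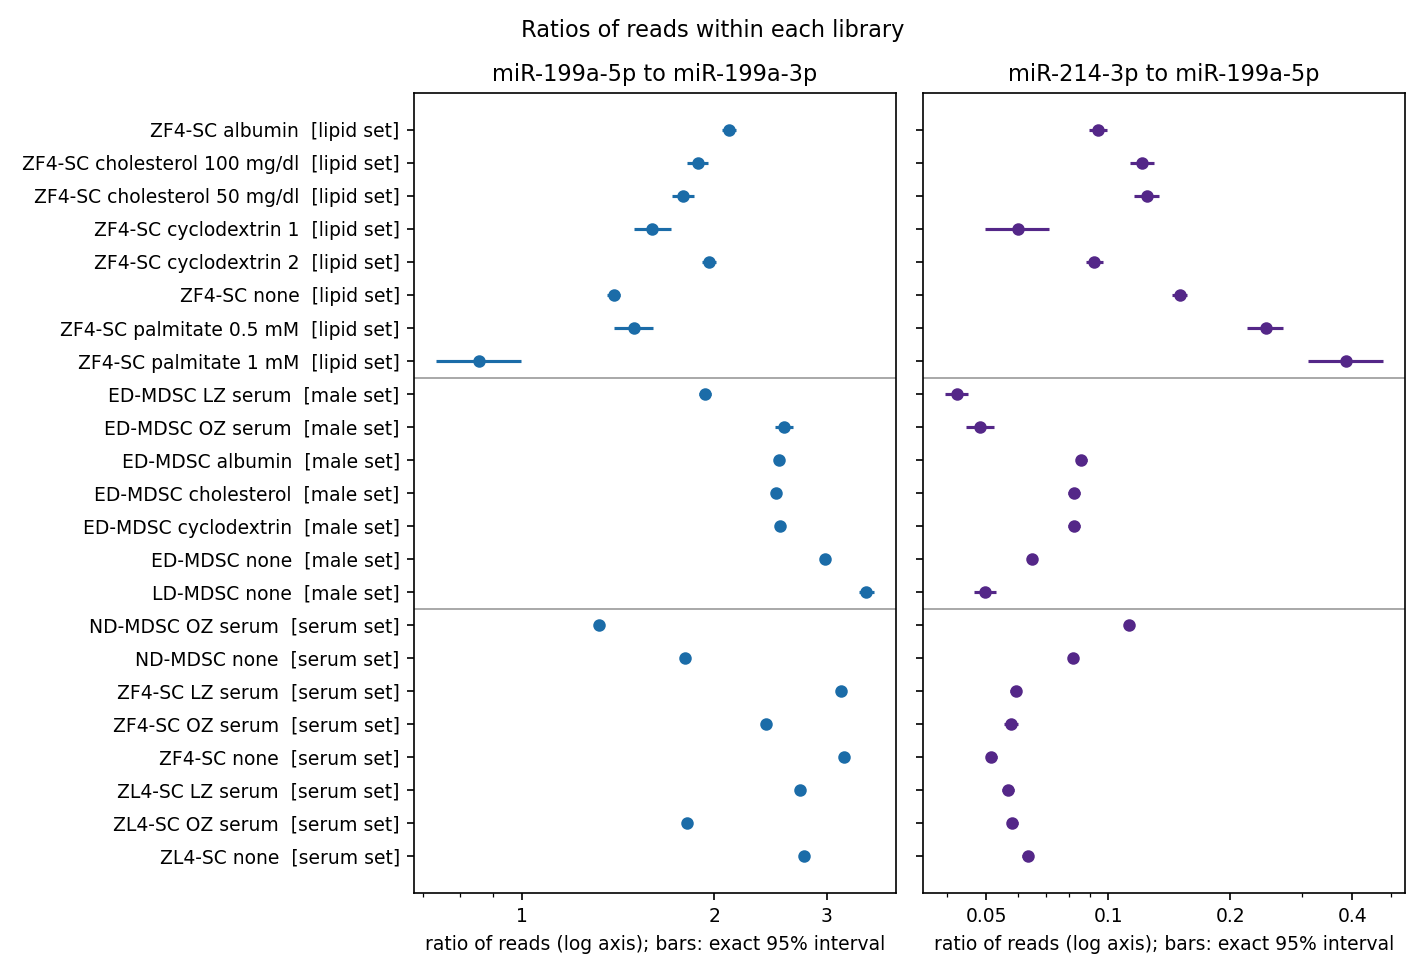
Ratio of miR-199a-5p to miR-199a-3p reads (left) and of miR-214-3p to miR-199a-5p reads (right) in each library on log axes, with exact 95% intervals. The palmitate libraries of ZF4-SC lie farthest right on the right side, at 0.244 and 0.386, and the 1 mM library is the only one under 1 on the left side, at 0.855.

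Palmitate was compared with its carrier albumin in ZF4-SC. miR-199a-5p had 4004 RPM with albumin, 2303 with palmitate at 0.5 mM and 3041 at 1 mM. miR-199a-3p had 1900, 1540 and 3556, and miR-214-3p had 378, 563 and 1173. The arms of miR-199a therefore parted, the 5p arm lower at both doses and the 3p arm lower at one and higher at the other, while miR-214-3p was higher at both, at 1.49 (1.34 to 1.65) and 3.10 (2.56 to 3.73) of albumin. With TMM scaling these were 1.03 and 1.82, and miR-199a-3p at 1 mM went from 1.87 to 1.10. The 1 mM library rests on 319, 373 and 123 reads of the 3 members. With the doses taken as replicates the log2 change was -1.10 ± 0.38 (8 libraries of the set in the fit, edgeR adjusted p = 0.235) for miR-199a-5p, -0.13 ± 0.46 (0.908) for miR-199a-3p and 0.65 ± 0.63 (0.713) for miR-214-3p. None of the 3 passed and no other miR did (0.0%, 0 of 219), while 33 miRs had an unadjusted p under 0.05, miR-199a-5p among them, and DESeq2 called 12, none a member. For miR-199a-3p the direction turned to 0.42 with library totals in place of TMM factors. The blood-cell list was at 13.6 with albumin and at 326 and 419 with palmitate at 0.5 and 1 mM, and its part was not tested.

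Cholesterol was compared with cyclodextrin. In ED-MDSC the cholesterol library was close to the cyclodextrin library for each member, at 0.974 (0.961 to 0.987), 0.989 (0.968 to 1.01) and 0.974 (0.930 to 1.02). In ZF4-SC the 2 cyclodextrin libraries, numbered 1 and 2 in accession order, differed from each other. miR-199a-5p had 2729 and 4070 RPM in them, miR-199a-3p 1704 and 2074, and miR-214-3p 163 and 376. With cholesterol at 50 and 100 mg/dl miR-199a-5p had 3797 and 4555, miR-199a-3p 2123 and 2417, and miR-214-3p 472 and 552. For miR-199a-5p the groups overlapped, and for miR-214-3p both cholesterol libraries were above both cyclodextrin libraries. For miR-199a-3p cholesterol at 50 mg/dl was at 1.02 (0.986 to 1.06) of cyclodextrin library 2, or 0.972 with TMM scaling, so the groups were not separated beyond counting error. The blood-cell list was at 249.5 and 66.4 RPM with cholesterol at 50 and 100 mg/dl and at 566 and 35.4 in cyclodextrin libraries 1 and 2, and its part was not tested. The log2 change was 0.27 ± 0.32 for miR-199a-5p, 0.24 ± 0.38 for miR-199a-3p and 0.88 ± 0.50 for miR-214-3p (8 libraries in the fit, edgeR adjusted p = 0.993 for each). No member passed, where 0.913% of miRs did, 2 of 219.

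Carriers alone went with higher levels of miR-214-3p and miR-199a-3p in ED-MDSC and with lower levels of both in ZF4-SC. In ED-MDSC miR-214-3p was at 1.57 (1.51 to 1.64) of the untreated level with albumin and at 1.40 (1.34 to 1.46) with cyclodextrin, and miR-199a-3p at 1.41 (1.38 to 1.43) and 1.29 (1.27 to 1.32). miR-199a-5p was nearer to 1, at 1.19 (1.18 to 1.20) with albumin and 1.10 (1.09 to 1.12) with cyclodextrin, the latter at 0.921 with TMM scaling. The blood-cell list was at 202 RPM in untreated ED-MDSC, 803 with albumin and 146 with cyclodextrin. In ZF4-SC of the lipid set, which had 612 RPM of miR-214-3p without addition, albumin stood at 0.618 (0.582 to 0.656), and the cyclodextrin libraries at 0.266 (0.222 to 0.318) and 0.615 (0.579 to 0.653). miR-199a-3p was at 0.649 (0.631 to 0.666) with albumin and 0.582 (0.550 to 0.615) and 0.708 (0.690 to 0.727) with cyclodextrin. For albumin the median ratio was itself 0.818, and TMM scaling gave 0.774 for miR-214-3p and 0.813 for miR-199a-3p. For the cyclodextrin libraries TMM scaling gave lower values, 0.206 and 0.542 for miR-214-3p and 0.450 and 0.624 for miR-199a-3p. miR-199a-5p was at 0.982 (0.962 to 1.00) with albumin, 1.23 with TMM scaling, and at 0.669 (0.640 to 0.700) and 0.998 (0.978 to 1.02) in the cyclodextrin libraries. There the blood-cell list was at 40.0 RPM without addition, 13.6 with albumin, 566 in cyclodextrin library 1 and 35.4 in library 2, and its part was not tested in either kind of cell. Cyclodextrin against none in ZF4-SC gave a log2 change of -1.46 ± 0.59 for miR-214-3p (8 libraries in the fit, edgeR adjusted p = 0.365), -0.93 ± 0.45 for miR-199a-3p (0.510) and -0.56 ± 0.39 for miR-199a-5p (0.738). No member passed, where 1.37% of miRs did, 3 of 219. Without cyclodextrin library 2 the change of miR-214-3p was -2.17 (edgeR adjusted p = 0.00732) and passed, as 14.2% of miRs did in that fit, 30 of 211. It then rests on cyclodextrin library 1, which had 131 reads of it and the high blood-cell sum. Albumin against none gave 0.18 ± 0.46, -0.42 ± 0.54 and -0.49 ± 0.70 for miR-199a-5p, miR-199a-3p and miR-214-3p (8 libraries in the fit, edgeR adjusted p = 0.997 for each), and 0 of 219 miRs passed (0.0%), 1 with an unadjusted p under 0.05 and 0 called by DESeq2. The single untreated and albumin libraries are assumed in these fits to vary like the duplicated conditions.

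**Figure D4:**
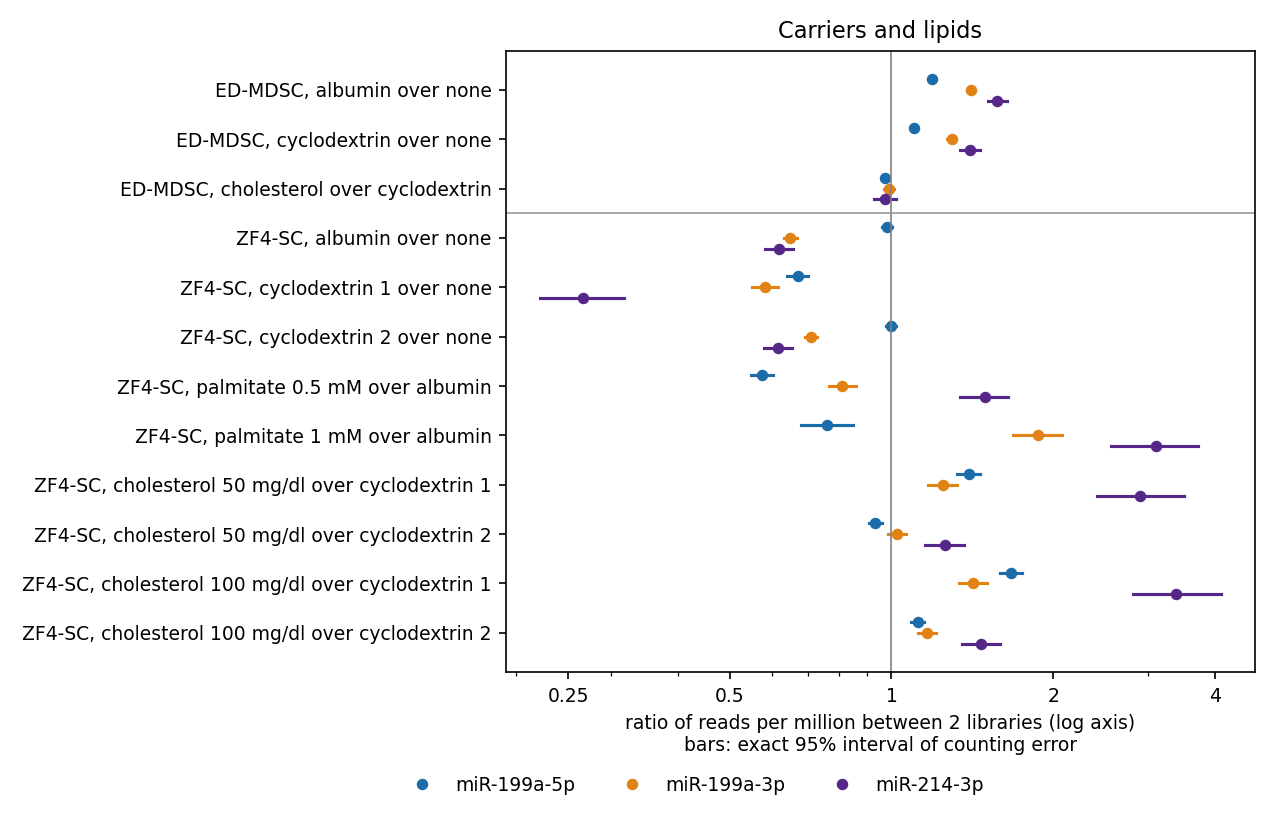
Ratios of RPM between 2 libraries on a log axis, for carriers against no addition and lipids against their carrier, with exact 95% intervals of counting error. The carriers of ED-MDSC lie right of 1, up to 1.57, and those of ZF4-SC at or left of 1, down to 0.266.

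For the other arm of the miR-214 hairpin the row is miR-214-5p. It had 88 reads in all, above 0 in 14 libraries and at 0 in the other 9. As printed above, miR-214-5p covers positions 12 to 28, so these reads do not measure the rest of that arm. Of the 88 reads 36 were in ND-MDSC with OZ serum, 2.71 RPM (1.96 to 3.76), against 1 read in ND-MDSC without serum. In untreated ED-MDSC 14 reads gave 3.65 RPM, and with OZ serum there was none, which at that depth allows up to 1.19. In the palmitate library at 1 mM a count of 0 allows up to 28.6 RPM, so nothing can be said there.

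miR-3120, from the strand opposite to miR-214, is not a member and was looked at after its values were seen. It had 1178 reads in all, above 0 in 18 libraries. In untreated ED-MDSC it had 19.8 RPM (15.8 to 24.8), with LZ serum 5.10 (3.18 to 8.16) and with OZ serum 4.78 (2.73 to 8.35). ND-MDSC had 22.9 (19.7 to 26.6) without and 15.7 (13.8 to 18.03) with OZ serum, and ZF4-SC of the serum set 10.5 (8.26 to 13.3) and 4.75 (3.47 to 6.49). ZL4-SC went the other way, with 9.74 (7.77 to 12.2) without serum, 12.1 (9.77 to 14.9) with LZ and 13.9 (11.4 to 16.8) with OZ serum, a ratio of 1.42 (1.05 to 1.94) for OZ serum over none, or 0.883 with TMM scaling. In the lipid set it was at 13.2 (10.2 to 17.1) in untreated ZF4-SC, 11.5 (7.34 to 17.9) with cholesterol at 100 mg/dl and 3.14 (1.90 to 5.17) with albumin. It was listed at 0 in both cyclodextrin libraries, at both palmitate doses and with cholesterol at 50 mg/dl. There a 0 allows up to 0.629 RPM in the deeper cyclodextrin library, 1.67 with that cholesterol dose and 28.6 with palmitate at 1 mM. Whether the counting used strand is not given in the sources used here, and without strand reads of this stretch cannot be told apart from reads of the miR-214 hairpin.

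Among 152 other miRs that averaged 100 reads or more, those whose levels ran most like miR-199a-5p over the 23 libraries were miR-152-3p (Spearman's rho 0.884), miR-365-3p (0.871), miR-21-5p (0.870), miR-100-5p (0.857) and miR-199a-3p (0.856). Libraries share kinds of cells and count tables, so these values are descriptions. After centring on the mean of each kind of cell and set, which leaves 22 libraries since LD-MDSC has 1, the nearest were miR-148a-5p (0.872), miR-146b-5p (0.807), miR-199a-3p (0.780), miR-148a-3p (0.772) and miR-152-3p (0.768). miR-152, miR-21 and miR-100 of the first group are on the mesenchymal list, but the list as a whole did not run with miR-199a-5p. From no addition to OZ serum its sum fell in ED-MDSC, from 518944 to 397367 RPM. It rose in ZF4-SC of the serum set, from 404735 to 574277, and in ZL4-SC, from 453471 to 554630. In ND-MDSC it was 361847 and 363097. The other arm of miR-199a thus ranked in both lists, and miR-214-3p ranked at 32 in the first (0.700) and at 6 in the second (0.736). The nearest miR to miR-214-3p was miR-199a-3p over all libraries (0.838) and miR-148a-3p after centring (0.909).

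Other fibrosis miRs were compared between OZ serum and no addition. Of the 8 on the fibrosis list (miR-21-5p, miR-29a-3p, miR-29b-3p, miR-29c-3p, miR-192-5p, miR-26a-5p, miR-30a-5p and let-7d-5p) 7 could be tested for OZ serum against none. None passed, 3 of the 7 were lower, and their median log2 change was 0.00, against -0.09 for all 300 miRs. miR-21-5p, which promotes fibrosis, had -0.48 ± 0.52 (edgeR adjusted p = 0.952). miR-29a-3p and miR-29b-3p, which repress collagens, had 0.00 ± 0.28 (0.999) and 0.28 ± 0.57 (0.986). miR-29c-3p had 42 reads over all libraries and was not tested. miR-10b-5p, which Twist1 induces in human cells, had -0.11 ± 0.61 (edgeR adjusted p = 0.995), and its single ratios went both ways, 4.99 (4.90 to 5.08) in ED-MDSC and 0.346 (0.343 to 0.349) in ZF4-SC with OZ serum.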

How the data were processed

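The authors had small RNA libraries built and sequenced by Norgen Biotek with reads assigned to miRBase Release 18. They deposited unscaled counts (whole reads) for 792 entries in 3 tables (0 columns belonged to no sample). The aligner and the treatment of reads matching several miRs are not given in the sources used here. Members and lists were chosen with earlier results of these data known. The miRs named are the members, the 5 most like miR-199a-5p by each measure, and the listed fibrosis and Twist1 miRs.

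Counts were divided by the library total. Shares have 95% Wilson intervals, ratios exact Clopper-Pearson intervals (scipy 1.17.1), and a count of 0 allows up to 3 counts. Reads are not independent molecules, so these cover counting error only. Pairs of libraries were set beside miRs averaging 100 reads or more, and likeness used log2 of reads per 1000000 plus 1. Tests used edgeR 4.0.16 (R 4.3.3) with TMM factors, on miRs averaging 10 reads or more, with an adjusted p under 0.05, with DESeq2 1.42.0 as an alternative. They were also run on simulated counts without differences between kinds of cells or count tables, which does not show how they perform on these libraries. Serum tests had kinds of cells as blocks, lipid tests had doses as replicates, and the test of ZF4-SC against ZL4-SC used all 14 female libraries. Libraries of 1 condition were compared by chi-square, which was 344 and 2453 per degree of freedom, so none was a copy. Alternatives were other scalings, filters, blocks, controls and leaving out each library or kind of cell.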

Additional observations from a re-analysis of the deposited data

Results flagged for a closer look

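Members with opposite values in 2 kinds of cells under 1 contrast are listed here, and each rests on single libraries. The difference between kinds of cells was tested only for OZ serum against none in ZF4-SC and ZL4-SC. For miR-199a-3p that log2 difference was -0.34 ± 0.85 (SE), where each serum condition is 1 library. With albumin, rno-miR-214-3p was at 1.57 of the untreated level in ED-MDSC and 0.618 in ZF4-SC, and rno-miR-199a-3p at 1.41 and 0.649. With cyclodextrin, rno-miR-214-3p was at 1.40 in ED-MDSC and at 0.266 and 0.615 in the 2 ZF4-SC libraries, and rno-miR-199a-3p at 1.29 against 0.582 and 0.708. ED-MDSC and ZF4-SC belong to different count tables, and kind of cell and table cannot be told apart. With OZ serum, rno-miR-199a-3p was at 1.41 of the untreated level in ZL4-SC but at 0.281 in ED-MDSC, 0.670 in ND-MDSC and 0.568 in ZF4-SC. Against LZ serum it was at 1.44 in ZL4-SC, 0.601 in ED-MDSC and 0.651 in ZF4-SC. With TMM scaling the ZL4-SC values were 0.872 and 0.984.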

How the results depend on the processing

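Of 249 log2 changes of the members recomputed under the alternatives, 238 kept their direction and 1 passed the threshold, miR-214-3p with cyclodextrin against none, which ranged from -2.17 to -0.75 (log2) when 1 library was left out. The cause of the 11 turns was not tested. With library totals miR-199a-5p had a log2 difference of -0.50 between OZ serum in ZF4-SC and in ZL4-SC, and with the count table as a term, added after seeing the data, it had -0.188 and miR-214-3p 0.098. With library totals miR-199a-5p had -0.026 for albumin against none, and miR-199a-3p 0.42 for palmitate against albumin (0.10 on miRs averaging 100 reads or more). Without blocks miR-199a-3p had 0.14 for OZ against LZ serum. Leaving out a kind of cell or a library gave -0.43 to 0.31 (highest without ED-MDSC) for that contrast, -0.60 to 0.23 for palmitate, and -0.080 to 0.58 for miR-199a-5p with cholesterol.

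The numbers of miRs called moved as follows. DESeq2 called 4 for OZ serum and 1 for LZ serum against none, 0 for OZ against LZ serum, 7 for cholesterol, 12 for palmitate and 13 for cyclodextrin, and edgeR without a filter 5, 1, 2, 6, 20 and 13. For OZ against LZ serum library totals, RLE factors, no blocks and the stricter filter gave 0. The stricter filter gave 1 for cyclodextrin against none. ED-MDSC and ZF4-SC together gave 0 for cholesterol and 0 for cyclodextrin. Leaving out 1 kind of cell gave 0 to 3 for LZ serum against none and 1 to 9 for OZ against LZ serum, highest without ED-MDSC. Leaving out 1 library gave 0 to 7 for cholesterol, 0 to 21 for palmitate (12 without cyclodextrin library 1) and 1 to 30 for cyclodextrin, highest without cyclodextrin library 2 each time.

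Most ratios of single libraries depended on the scaling in size. TMM scaling moved 59 without a turn, turned 9 and left 16 the same. Totals without the 3 most abundant miRs moved 55, turned 2 and left 27 the same. Among the turns, TMM scaling brought miR-199a-3p to 1.03 for OZ over LZ serum in ZF4-SC, and to 0.872 over none and 0.984 over LZ serum in ZL4-SC. Untreated ZF4-SC over ZL4-SC became 0.648, 0.560 and 0.527 for miR-199a-5p, miR-199a-3p and miR-214-3p, and without the 3 most abundant miRs 0.901 and 0.848 for the last pair. ZF4-SC of the lipid over the serum set became 1.08 and 1.37 for miR-199a-3p and miR-214-3p, and miR-199a-5p with cyclodextrin in ED-MDSC 0.921. With the untreated ZF4-SC library of the lipid set, miR-199a-5p was at 2.73 with LZ serum, 1.36 with OZ serum and 0.425 over ZL4-SC, and miR-199a-3p at 1.20 with LZ serum and 0.844 over ZL4-SC.

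With that library, a control added after seeing the data, the arm ratio changed by -0.12 (mean log2) with OZ serum and by 0.18 with LZ serum, and miR-214-3p over miR-199a-5p by -0.37 with OZ serum. Leaving out a kind of cell gave -0.13 to 0.16 for the latter and -0.39 to 0.021 with LZ serum. Pairs were formed by kind of cell only, since replicate numbers follow accession order and pair nothing. Depth limits the palmitate library at 1 mM and cyclodextrin library 1 most.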
